A study of Mus musculus with 8 samples.

Results

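Matrix metalloproteinases are zinc-dependent endopeptidases that cut collagen, elastin, gelatin and other proteins of the extracellular matrix, as well as chemokines and cell surface proteins. Most are made as inactive proenzymes, and the tissue inhibitors of metalloproteinases (TIMPs) block the active enzymes by binding their catalytic site. In dendritic cells, the antigen-presenting cells that leave inflamed tissue for lymph nodes, this system is known for its part in migration through matrix. The 9 genes described here were 6 proteases, Mmp8, Mmp9, Mmp12, Mmp13, Mmp14 and Mmp19, and 3 inhibitors, Timp1, Timp2 and Timp3, out of 27398 gene names on the array. They were chosen by name: every probe annotated to one of them was taken, which gave 12 probes, and 8 of the 9 genes passed the filter on dim probes and were tested among 15401 genes.

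The study grew dendritic cells from mouse bone marrow and compared cells lacking miR-155, a microRNA that immune cells induce on activation, with wild-type cells, each with and without lipopolysaccharide (LPS), a bacterial cell wall component sensed by Toll-like receptors. The 4 groups were miR-155 knockout (KO) with LPS, KO unstimulated, wild type (WT) with LPS and WT unstimulated, with 2 arrays each. All came from male mice of the C57BL/6Jax strain, and their marrow was cultured for 7 days with the growth factor GM-CSF at 40 ng/mL. The LPS groups received 100 ng/mL for 16 h. The age of the mice and the knockout allele are not given in the labels. The cells were then sorted: unstimulated cells were taken as CD86-negative, and LPS cells as CD86-positive and adherent, so the effects of LPS and of the sorting gate cannot be told apart. The labels number the replicates but do not say whether they came from separate animals or cultures, so p-values measure only the spread between these arrays, which may be technical.

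The arrays had a 75th percentile of processed signal between 475 and 751 intensity units, between 50.8% and 58.3% of the spots were well above background, and no spot was saturated. Values below are log2 signals minus the 75th percentile of the same array, called scaled log2 signals, so that 0 marks a probe as bright as that percentile and a step of 1 is a 2-fold difference. No probe on the array is named for miR-155 or its host gene, so the knockout was not checked here. Of the 11 dendritic cell markers, 10 were well above background on all 8 arrays, but so were 11 of 12 macrophage markers and 7 of 8 osteoclast markers. Of 14 neutrophil markers on the array, 3 were well above background on all 8 arrays, while the granule genes Elane, Prtn3 and Fcnb were so on none. Of 11 stromal markers, 2 were well above background on all 8 arrays, and Col3a1 and Pdgfra on none. In bulk RNA of this kind, fewer cells of a type and less RNA per cell cannot be told apart.

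The probes are 60-base oligonucleotides, and their sequences are shown where the target matters for reading a value. Timp1 and Mmp14 were each read by a pair of probes at different places in the transcript. The Mmp12 probe is shown because its annotated genomic span, chr9:7354810-7355325 on the plus strand of mm9, covers 516 bases, more than the length of the probe. The more 3′ of the Timp1 pair, probe A_52_P87713 at chrX:20451675-20451733, was the brighter and stands for the gene, and probe A_51_P512384 lies at chrX:20449905-20449964. For Mmp14, probe A_52_P304128 lies at chr14:55058775-55058834, and the brighter probe A_51_P216303, which stands for the gene, at chr14:55059969-55060028. All 3 genes are on the plus strand in mm9. Exon and UTR annotation of this build was not used here.
Mmp12 probe A_51_P313674: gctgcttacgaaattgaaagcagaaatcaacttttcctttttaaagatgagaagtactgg
Mmp14 probe A_52_P304128: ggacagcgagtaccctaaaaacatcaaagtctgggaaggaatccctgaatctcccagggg
Timp1 probe A_51_P512384: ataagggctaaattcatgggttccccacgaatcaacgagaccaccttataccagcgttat
Timp1 probe A_52_P87713: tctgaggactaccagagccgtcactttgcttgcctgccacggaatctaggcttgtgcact

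After LPS, the proteases Mmp13 and Mmp14 and the inhibitor Timp1 rose in both genotypes, and the protease Mmp19 and the inhibitor Timp2 fell in both. Mmp8, Mmp12 and Timp3 did not pass the test in either genotype, and Mmp9 was too dim to be tested. The counts were therefore 3 members higher, 2 lower and 3 not called of 8 tested in KO cells, where 20.8% of all genes tested were called (10.3% higher and 10.5% lower) and 34.2% had an unadjusted p under 0.05. They were again 3, 2 and 3 of 8 in WT cells, where 20.2% of all genes tested were called (9.48% higher and 10.7% lower) and 34.7% had an unadjusted p under 0.05. The median log2 difference of the tested members was -0.33 in KO cells and 0.03 in WT cells, against 0.05 and 0.00 over all genes tested. For 7 of the 8 tested members the LPS arrays and the unstimulated arrays did not overlap in KO cells, where the same held for 63.6% of all genes. In WT cells this held for 7 of 8, and for 62% of all genes. The 7 in WT cells include Timp3, which passed the filter only through the WT LPS group, where it was higher. Calls rest on limma with Benjamini-Hochberg adjustment over all genes tested, at an adjusted p under 0.05.

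**Figure D1:**
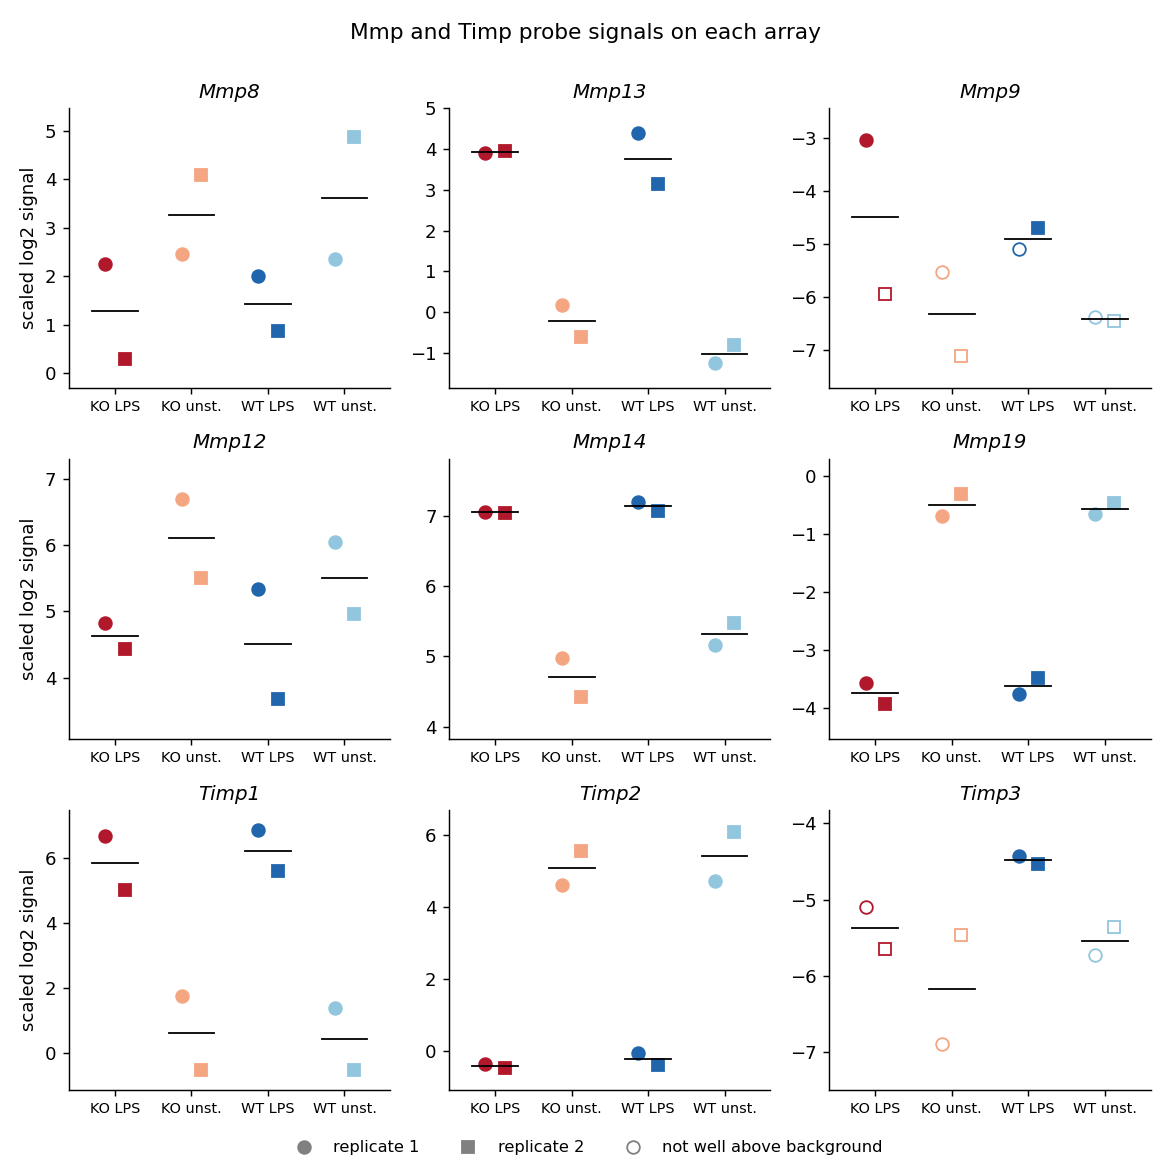
Scaled log2 signal (y axis, 0 is the 75th percentile of the array) of the probe that stands for each gene, on the 2 arrays of each group, with the group mean as a line and each panel on its own axis. Open symbols mark arrays on which the probe was not well above background: all 8 Mmp9 values but those of KO LPS replicate 1 and WT LPS replicate 2, and all Timp3 values outside the WT LPS group.

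Mmp13 is an interstitial collagenase that cleaves fibrillar collagen. Its probe, at chr9:7282762-7282821 of mm9, gave scaled log2 signals of 3.90 and 3.95 on the KO LPS arrays and 0.19 and -0.60 on the KO unstimulated arrays. In WT cells it gave 4.40 and 3.13 with LPS and -1.25 and -0.80 without. All 4 LPS arrays lay above all 4 unstimulated arrays, by more than any gap between replicates. Mmp13 was 17.5-fold higher with LPS in KO cells, a log2 difference of 4.13 ± 0.48 (SE, limma adjusted p = 0.00202), and 27.8-fold higher in WT cells, a log2 difference of 4.80 ± 0.48 (adjusted p = 0.00138). When each array was left out in turn the difference stayed between 3.74 and 4.52 in KO cells and between 4.16 and 5.43 in WT cells, with a highest adjusted p of 0.019 and 0.012.

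Mmp14 is the membrane-anchored metalloproteinase that cleaves collagen at the cell surface and, together with Timp2, activates pro-Mmp2. It gave scaled log2 signals of 7.06 and 7.04 on the KO LPS arrays and 4.97 and 4.43 on the KO unstimulated arrays, and 7.20 and 7.06 with LPS against 5.17 and 5.47 without in WT cells. The LPS arrays were the higher ones in both genotypes, with no overlap. Mmp14 was 5.09-fold higher with LPS in KO cells (log2 difference 2.35 ± 0.28, SE, limma adjusted p = 0.00233) and 3.52-fold higher in WT cells (1.82 ± 0.28, adjusted p = 0.0067). The dimmer probe gave 3.68 and 3.75 in KO LPS cells, 1.35 and 2.01 in KO unstimulated cells, 3.83 and 4.13 in WT LPS cells, and 1.88 and 2.15 in WT unstimulated cells. That is a log2 difference of 2.03 in KO cells (adjusted p = 0.00552) and 1.96 in WT cells (adjusted p = 0.00674), so both probes were called in both genotypes. The call was lost when the background was corrected by normexp (1.60 in KO and 1.83 in WT cells, adjusted p = 0.135 in each) and within a single slide (2.07 in KO cells, adjusted p = 0.0648, and 1.75 in WT cells, adjusted p = 0.0905).

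Mmp19, a secreted protease that cleaves basement membrane proteins, moved the other way. Its probe, at chr10:128236221-128236280 of mm9, gave scaled log2 signals of -3.56 and -3.93 in KO LPS cells against -0.69 and -0.32 in KO unstimulated cells, and -3.75 and -3.48 in WT LPS cells against -0.66 and -0.48 in WT unstimulated cells. Every LPS array was below every unstimulated array, and replicates of a group differed by at most 0.37. Mmp19 was 9.44-fold lower with LPS in KO cells (log2 difference -3.24 ± 0.28, SE, limma adjusted p = 0.000732) and 8.26-fold lower in WT cells (-3.05 ± 0.28, adjusted p = 0.00108). The probe remained well above background on all 8 arrays, but its size depended on the background correction: with normexp the log2 difference was -0.90 in KO cells (adjusted p = 0.357) and -2.04 in WT cells (adjusted p = 0.118). Within slide 2 alone the KO difference was -3.05 (adjusted p = 0.0528).

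Mmp8, the collagenase first known from neutrophil granules, had the widest replicate gaps of the tested proteases, 1.13 to 2.52 log2 units within a group. Its probe, at chr9:7568238-7568297 of mm9, gave scaled log2 signals of 2.26 and 0.29 in KO LPS cells and 2.46 and 4.08 in KO unstimulated cells. In WT cells it gave 2.0 and 0.86 with LPS and 2.35 and 4.87 without. The LPS arrays were the lower ones in both genotypes, and the groups did not overlap, although KO LPS replicate 1 and KO unstimulated replicate 1 differed by less than any pair of replicates did, and so did the same pair in WT cells. The log2 difference was -2.0 ± 1.04 in KO cells (SE, limma adjusted p = 0.227) and -2.18 ± 1.04 in WT cells (adjusted p = 0.191), so neither passed the test.

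Mmp12, the elastase typical of macrophages, was among the bright probes on every array. It gave scaled log2 signals of 4.83 and 4.44 in KO LPS cells and 6.69 and 5.51 in KO unstimulated cells, which did not overlap. In WT cells it gave 5.34 and 3.68 with LPS and 6.05 and 4.96 without, which did overlap. The log2 difference was -1.47 ± 0.67 in KO cells (SE, limma adjusted p = 0.176) and -1.0 ± 0.67 in WT cells (adjusted p = 0.342). With the slide as a block the KO value was -2.18 (adjusted p = 0.0327) and would be called.

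Mmp9, gelatinase B, cleaves denatured collagen and type IV collagen of basement membranes. It was near the background and was measured by probes at chr2:164780303-164780362 and chr2:164780620-164780679 of mm9. The brighter probe, A_51_P401797, gave scaled log2 signals of -3.03 and -5.95 in KO LPS cells, -5.53 and -7.12 in KO unstimulated cells, -5.10 and -4.70 in WT LPS cells, and -6.37 and -6.46 in WT unstimulated cells. Only KO LPS replicate 1 and WT LPS replicate 2 were well above background. The second probe, A_52_P507214, was well above background on KO LPS replicate 1 alone, at -4.18, with values from -7.30 to -6.12 on the other arrays. The highest value of both probes thus came from the same array. Without the filter on dim probes, the log2 difference with LPS was 1.83 ± 0.93 in KO cells (SE, limma adjusted p = 0.322) and 1.52 ± 0.93 in WT cells (adjusted p = 0.316), while the median over all genes then was 0.12 in KO cells and -0.36 in WT cells.

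Among the inhibitors, Timp1 is a soluble one that cells make in response to growth factors and cytokines and that binds pro-Mmp9. It gave scaled log2 signals of 6.69 and 5.01 in KO LPS cells against 1.73 and -0.53 in KO unstimulated cells, and 6.87 and 5.59 in WT LPS cells against 1.37 and -0.55 in WT unstimulated cells. Every LPS array was above every unstimulated array by over 3 log2 units, and replicate 1 was the higher one in all 4 groups, by 1.28 to 2.26. Timp1 was 38.0-fold higher with LPS in KO cells (log2 difference 5.25 ± 1.01, SE, limma adjusted p = 0.013) and 56.5-fold higher in WT cells (5.82 ± 1.01, adjusted p = 0.00962). The other probe, whose sequence is given above, read 3.81 and 2.28 in KO LPS cells, -1.08 and -3.54 in KO unstimulated cells, 4.26 and 2.59 in WT LPS cells and -1.50 and -3.84 in WT unstimulated cells. It showed the same direction, with log2 differences of 5.35 in KO cells (adjusted p = 0.0171) and 6.09 in WT cells (adjusted p = 0.0114). The KO call was lost without KO LPS replicate 1 (4.41, adjusted p = 0.0611), without KO unstimulated replicate 2 (4.12, adjusted p = 0.0767) and within slide 2 (4.12, adjusted p = 0.0999). The WT call was lost without WT LPS replicate 1 (5.18, adjusted p = 0.053), and without variance moderation the adjusted p was 0.0837 in KO cells and 0.0709 in WT cells.

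Timp2 is the inhibitor that also serves Mmp14 as a docking partner for pro-Mmp2. Its probe, on the minus strand at chr11:118163146-118163205 of mm9, gave scaled log2 signals of -0.37 and -0.48 in KO LPS cells against 4.61 and 5.56 in KO unstimulated cells. In WT cells it gave -0.05 and -0.39 with LPS against 4.74 and 6.09 without. The unstimulated arrays were all far above the LPS arrays. Timp2 was 45.6-fold lower with LPS in KO cells (log2 difference -5.51 ± 0.51, SE, limma adjusted p = 0.000925) and 49.5-fold lower in WT cells (-5.63 ± 0.51, adjusted p = 0.000995). It kept its call within slide 2 in KO cells (-5.03, adjusted p = 0.042) and within slide 1 in WT cells (-5.80, adjusted p = 0.008). Timp1 and Timp2 therefore moved in opposite directions in both genotypes.

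Timp3, the inhibitor that stays bound to the matrix and also blocks the sheddase Adam17, was well above background on the WT LPS arrays only, and passed the filter through that group alone. Its probe, at chr10:85811696-85811755 of mm9, gave scaled log2 signals of -5.10 and -5.65 in KO LPS cells, -6.90 and -5.46 in KO unstimulated cells, -4.43 and -4.53 in WT LPS cells, and -5.73 and -5.36 in WT unstimulated cells. The KO groups overlapped, and neither was above background, so no fold is given for them. In WT cells the LPS arrays were the higher ones. Their mean was at least 1.06-fold over the dimmest signals counted as above background. Even so, WT LPS replicate 2 (-4.53) was below that signal on WT unstimulated replicate 2 (-4.45). The fitted log2 difference was 1.06 ± 0.48 (SE, limma adjusted p = 0.172), which did not pass the test and was -0.0053 with normexp. Here and below, "at least" folds set the mean of the bright group against the lowest signal well above background on each array of the dim group, or the probe's own signal where that was higher.

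**Figure D2:**
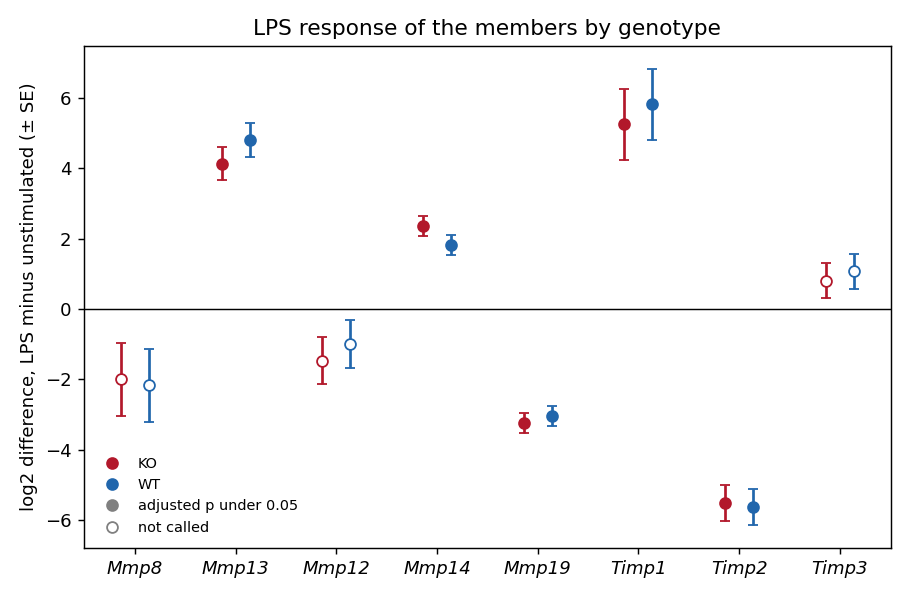
Log2 difference between LPS and unstimulated cells (y axis) for the 8 tested members, in KO cells (red, left) and WT cells (blue, right), with bars of 1 SE from the limma fit over 8 arrays. Filled points passed an adjusted p under 0.05: Mmp13, Mmp14 and Timp1 lie above 0 and Mmp19 and Timp2 below it in both genotypes.

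Markers of other cell types moved between the LPS and unstimulated groups as well, and their part in the results above was not tested. The counts of markers called below stand against 20.8% of all genes called in KO cells and 20.2% in WT cells. The summed level of the 11 stromal markers, in multiples of the array's 75th percentile, was 142 to 168 in KO LPS and 106 to 118 in KO unstimulated cells, and 130 to 218 in WT LPS and 99.1 to 104 in WT unstimulated cells. Most of that sum was Acta2, the smooth muscle actin gene. Without it, an alternative chosen after the values were seen, the other 10 summed to 5.29 to 14.3 in KO LPS and 0.461 to 0.967 in KO unstimulated cells, and to 4.46 to 8.50 in WT LPS and 0.566 to 0.797 in WT unstimulated cells. Stromal Dcn, a collagen-binding proteoglycan, was at least 97.1-fold higher with LPS in KO cells (limma adjusted p = 0.00854) and at least 40.7-fold higher in WT cells (adjusted p = 0.0162). These bounds hold for group means and not for each array: the KO LPS mean of 1.22 included an array at 3.42. Of 7 tested stromal markers 3 rose in KO cells and 4 in WT cells, with none lower. Dcn and another of these rising markers passed the filter through the LPS groups alone, which leans such a count towards a rise. The neutrophil markers summed to 81.1 to 114 in KO LPS and 52.6 to 57.8 in KO unstimulated cells, and to 89.0 to 145 in WT LPS and 80.5 to 101 in WT unstimulated cells. Without Lcn2, likewise left out after the values were seen, the order of the sums turned: 34.3 to 38.2 in KO LPS and 52.6 to 57.8 in KO unstimulated cells, and 44.6 to 46.1 in WT LPS and 80.5 to 101 in WT unstimulated cells. Most of this remaining sum was again a single gene in every group, so the turn does not show a fall across the list. Of 8 tested neutrophil markers 2 rose and 1 fell in KO cells, and 2 rose and 2 fell in WT cells. All neutrophil markers that rose had passed the filter through the LPS groups alone, which leans this count towards a rise. Macrophage markers summed to 194 to 410 in KO LPS and 243 to 310 in KO unstimulated cells, and to 299 to 333 in WT LPS and 238 to 325 in WT unstimulated cells, but 6 of 12 fell and 1 rose in each genotype. Mrc1, the mannose receptor, fell by 5.68 log2 units in KO cells (adjusted p = 0.000823) and fell by 5.73 in WT cells (adjusted p = 0.000962). Osteoclast markers, of which 1 rose and 2 fell of 8 tested in each genotype, summed to 38.4 to 63.9 in KO LPS and 43.2 to 53.4 in KO unstimulated cells, and to 44.5 to 77.4 in WT LPS and 41.2 to 49.7 in WT unstimulated cells. The osteoclast marker that rose had likewise passed the filter through the LPS groups alone. The dendritic cell markers summed to 1310 to 1537, 1178 to 1407, 1055 to 1569 and 1023 to 1461 in the same order of groups, and of 11 tested 1 rose and 1 fell in each genotype. The migration receptor Ccr7 rose by 7.24 log2 units in KO cells and by 6.65 in WT cells. Cd209a, a lectin of immature dendritic cells, fell by 5.01 in KO cells, where 1 of the 2 LPS arrays measured it (adjusted p = 0.0149), and, as it was below background on both WT LPS arrays, was at least 11.4-fold lower in WT cells (adjusted p = 0.0126), and lost both calls with normexp.

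Replicates also spread by gene and by slide. The arrays lay on 2 slides of 4: slide 1 held KO unstimulated replicate 2, WT LPS replicate 2 and both WT unstimulated arrays, and slide 2 held both KO LPS arrays, KO unstimulated replicate 1 and WT LPS replicate 1. Timp1 and Mmp12 were higher in replicate 1 in all 4 groups, Mmp12 by 0.39 to 1.67. With the slide as a block, the LPS difference was 3.62 in KO and 4.28 in WT cells for Mmp13, 2.18 and 1.64 for Mmp14, -3.08 and -2.89 for Mmp19, 4.36 and 4.93 for Timp1, and -5.36 and -5.48 for Timp2, and these 5 members kept their calls. Within slide 2, where both KO LPS arrays met 1 KO unstimulated array, 1 member rose (Mmp13, 3.74) and 1 fell (Timp2) in KO cells. Within slide 1, where 1 WT LPS array met both WT unstimulated arrays, Mmp13 (4.16), Mmp19 (-2.91), Timp1 (5.18) and Timp2 kept their calls.

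The comparison of KO with WT cells asks whether loss of miR-155 went with another level of these genes in the same state. No member was called in unstimulated cells, where 0.24% of all genes tested were called and 395 of 15401 (2.56%) had an unadjusted p under 0.05, and none was called with LPS, where 0.026% were called and 187 of 15400 (1.21%) had an unadjusted p under 0.05. No member had an unadjusted p under 0.05 in either state, and every limma adjusted p was 1.0. The groups did not overlap for 2 of 8 members in each state, against 20.8% of all genes in unstimulated cells and 21.1% with LPS. The median difference of the members was -0.13 unstimulated and -0.14 with LPS, against -0.04 and 0.00 over all genes.

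In unstimulated cells the members whose groups did not overlap were Mmp13 and Mmp14, whose values on each array stand above. Mmp13 differed by 0.82 log2 units between KO and WT cells, with a 95% interval of -0.31 to 1.96. Mmp14 differed by -0.62, with an interval of -1.29 to 0.06, and its dimmer probe by -0.33. With LPS the groups did not overlap for Mmp14 and Timp3. The Mmp14 difference was only -0.09 (interval -0.76 to 0.59). Timp3 passed the filter through the WT LPS group alone. The difference in its level was -0.89, with an interval of -2.04 to 0.26, and it did not pass the test. With normexp its direction turned, to 1.29, so no fold is given.

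For the remaining members the interval of the fit over 4 group means was as follows. It was narrowest for Mmp19, from -0.60 to 0.73 in unstimulated cells and from -0.80 to 0.54 with LPS. Timp2 had -1.53 to 0.89 unstimulated and -1.41 to 1.0 with LPS, and Mmp12 had -1.01 to 2.19 and -1.48 to 1.72. The intervals were widest for Timp1, from -2.20 to 2.58 unstimulated and from -2.77 to 2.01 with LPS, and for Mmp8, from -2.80 to 2.13 and from -2.62 to 2.31. For Mmp13 with LPS the interval was -0.98 to 1.29, and for Timp3 in unstimulated cells, where it was below background in both genotypes, no fold is given.

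**Figure D3:**
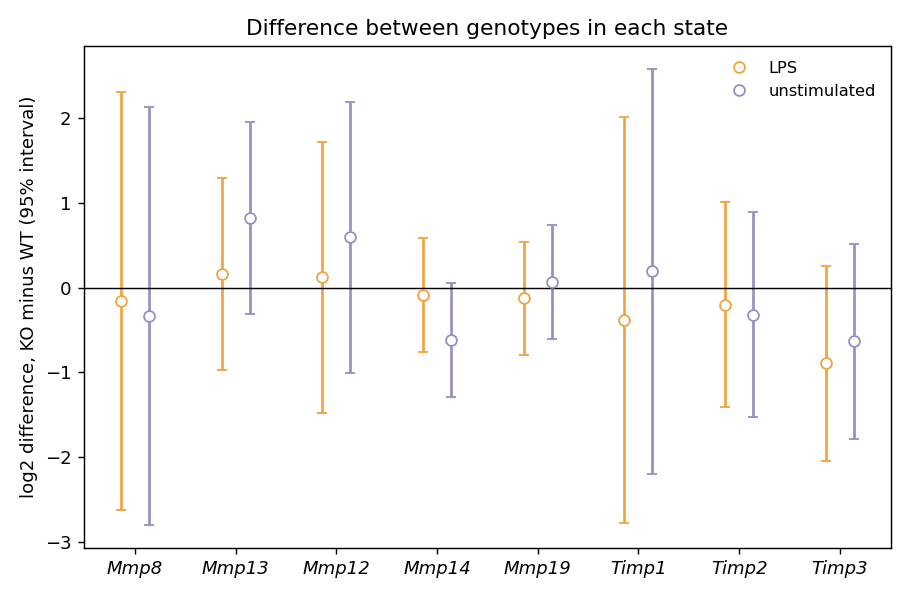
Log2 difference between KO and WT cells (y axis) for the 8 tested members, with LPS (orange, left) and unstimulated (purple, right), with bars giving the 95% interval of the limma fit over 8 arrays. All 16 intervals include 0, and those of Mmp8 and Timp1 are the widest.

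The LPS response itself was also compared between genotypes, as the KO response minus the WT response. No member was called, against 0.0455% of all genes tested, and 218 of 15400 genes (1.42%) had an unadjusted p under 0.05, none of them a member. The difference in response was -0.67 for Mmp13 (95% interval -2.27 to 0.94), 0.53 for Mmp14 (-0.42 to 1.49) and -0.19 for Mmp19 (-1.14 to 0.75). For the inhibitors it was -0.57 for Timp1 (-3.95 to 2.81), 0.12 for Timp2 (-1.59 to 1.83) and -0.26 for Timp3 (-1.88 to 1.37), and for Mmp8 and Mmp12 it was 0.18 (-3.31 to 3.66) and -0.47 (-2.73 to 1.79). The members' median was -0.22, against 0.05 over all genes.

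Other metalloproteinases were mostly too dim to test. Of 18 further genes listed, Mmp genes and Timp4, 16 were on the array and 6 were bright enough to test. Of these, 4 rose in KO cells and 3 in WT cells, and none fell, where 20.8% and 20.2% of all genes were called. Mmp7 passed the filter through the KO LPS group alone, and Mmp24 through the LPS groups alone. In other lists Adamts4, Serpine2, Lcn2, Dcn and Col4a2 were among those that likewise passed through LPS groups alone. Counts that include such genes lean towards a rise. Mmp25, a membrane-anchored protease of leukocytes, rose by 5.57 log2 units in KO cells (limma adjusted p = 0.00283) and by 5.06 in WT cells (adjusted p = 0.00453). Mmp7, or matrilysin, was well above background with LPS only, and was at least 2.65-fold higher in KO cells (adjusted p = 0.00403). In WT cells it was measured on 1 of the 2 LPS arrays and on neither unstimulated array, so no fold is given, although the gene was called (adjusted p = 0.0397). Mmp24, measured on 1 of the 2 KO unstimulated arrays, rose by 1.23 in KO cells (adjusted p = 0.0283) and was at least 1.01-fold higher in WT cells (adjusted p = 0.0172). With normexp, Mmp25 kept both calls, and the log2 differences of the others were no longer called: 2.09 in KO and 0.081 in WT cells for Mmp7, and 1.83 in KO and 0.052 in WT cells for Mmp24. The list's median was 1.04 in KO cells and 0.99 in WT cells, against 0.05 and 0.00 over all genes. When each array was left out in turn, Mmp25 kept its call in both genotypes and Mmp7 in KO cells, while Mmp7 in WT cells and Mmp24 lost theirs at least once.

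Of 21 related proteases of the ADAM and ADAMTS families, 11 were tested, and 1 rose and 3 fell in each genotype. The share called over all genes was 20.8% in KO cells and 20.2% in WT cells. Adamts4, an aggrecan-cleaving protease, was at least 2.65-fold higher with LPS in KO cells (limma adjusted p = 0.0275) and at least 1.49-fold higher in WT cells (adjusted p = 0.0371). Adamts10 fell by 3.04 log2 units in KO cells and fell by 2.32 in WT cells, Adam23 fell by 1.82 in KO cells and fell by 1.87 in WT cells, and Adam15 fell by 1.70 in KO cells and fell by 1.31 in WT cells. Of these calls, only that of Adamts10 in KO cells held without each array in turn, and with normexp only that of Adam15 in KO cells held. The normexp difference of Adamts4 was 1.83 in KO and 0.21 in WT cells, and that of Adamts10 was -1.86 in KO and -1.91 in WT cells. The list's median was 0.47 in KO cells and 0.44 in WT cells, against 0.05 and 0.00 over all genes.

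Genes of plasminogen activation, which feeds into the activation of several pro-MMPs, held some of the largest differences. Of 9 tested, 4 rose and 1 fell in each genotype, with a median of 0.36 in KO cells and -0.07 in WT cells. For all genes the share called was 20.8% in KO and 20.2% in WT cells, and the median 0.05 and 0.00. Serpinb2, which inhibits urokinase, rose by 7.51 log2 units in KO cells (limma adjusted p = 0.00483) and by 7.99 in WT cells (adjusted p = 0.00421), where 1 of the 2 unstimulated arrays measured it. Serpine2, a protease inhibitor also known as protease nexin, was at least 37.1-fold higher in KO cells and at least 12.2-fold higher in WT cells. Plat, the tissue plasminogen activator, was at least 67.1-fold higher in WT cells (adjusted p = 0.0171). S100a10, a plasminogen receptor subunit, fell by 1.57 in KO cells and fell by 1.33 in WT cells. The calls of Serpinb2 and Serpine2 held without each array in turn, and those of Plat in WT cells and of S100a10 did not. With normexp S100a10 lost both calls, and Serpinb2, Serpine2 and, in WT cells, Plat kept theirs.

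A further list covered activation, binding and clearance of metalloproteinases, and also held the plasma protein gene Hpx. Among its 12 tested genes, 2 rose and 1 fell in KO cells, and 1 rose and 1 fell in WT cells. These counts were near the share called over all genes, 20.8% in KO and 20.2% in WT cells. Lcn2, the lipocalin that complexes with Mmp9 and that is also in the neutrophil list, was at least 2486-fold higher in KO cells (limma adjusted p = 5.95e-05) and at least 1571-fold higher in WT cells (adjusted p = 6.61e-05). Hpx, a plasma heme carrier measured on 1 of the 2 KO unstimulated arrays, rose by 1.73 log2 units (adjusted p = 0.0282) and Lrp1, an endocytic receptor that clears TIMPs and MMPs, fell by 1.97 in KO cells (adjusted p = 0.0454). Cd63, a tetraspanin that binds Timp1, fell by 1.09 in WT cells (adjusted p = 0.0417). Of these calls, only those of Lcn2 held without each array in turn, and only those held with normexp. The median of the list was -0.27 in KO cells and -0.13 in WT cells, against 0.05 and 0.00 over all genes.

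Matrix proteins that these enzymes cut were tested for 10 of 14 genes. Of these, 4 rose and 1 fell in KO cells, where 20.8% of all genes were called. In WT cells, where 20.2% of all genes were called, 2 rose and 1 fell. Col4a2, a chain of basement membrane collagen measured on 1 of the 2 unstimulated arrays of each genotype, rose by 5.79 log2 units in KO cells (limma adjusted p = 0.0109) and by 5.09 in WT cells (adjusted p = 0.0179), and Dcn rose as given above. Fn1, fibronectin, fell by 2.71 in KO cells (adjusted p = 0.0177) and fell by 2.09 in WT cells (adjusted p = 0.0432). Col4a1, the partner chain of Col4a2, was at least 4.69-fold higher with LPS in KO cells (adjusted p = 0.00205), the only call named from this list that held without each array in turn. Col4a1 also gave the single genotype call in these 5 lists: in unstimulated cells it was at least 4.07-fold lower in KO than in WT cells (fitted log2 difference -2.97 ± 0.37, SE, adjusted p = 0.0426), being above background on no KO unstimulated array and on both WT unstimulated arrays. That genotype call did not hold when any 1 of the 8 arrays was left out, with an adjusted p of 0.0747 to 0.342, and with normexp the difference was -1.15. With the probes of each gene averaged, the Col4a1 difference between genotypes in unstimulated cells was -1.91 (limma adjusted p = 0.858). After LPS, Col4a1 in KO cells (2.12), Dcn in WT cells (3.46) and Fn1 in WT cells (-2.07) were no longer called with normexp. The median of the list after LPS was 1.29 in KO cells and 0.30 in WT cells, against 0.05 and 0.00 over all genes. Dcn and Col4a2 passed the filter through the LPS groups alone, which leans the counts and medians of this list towards a rise.

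**Figure D4:**
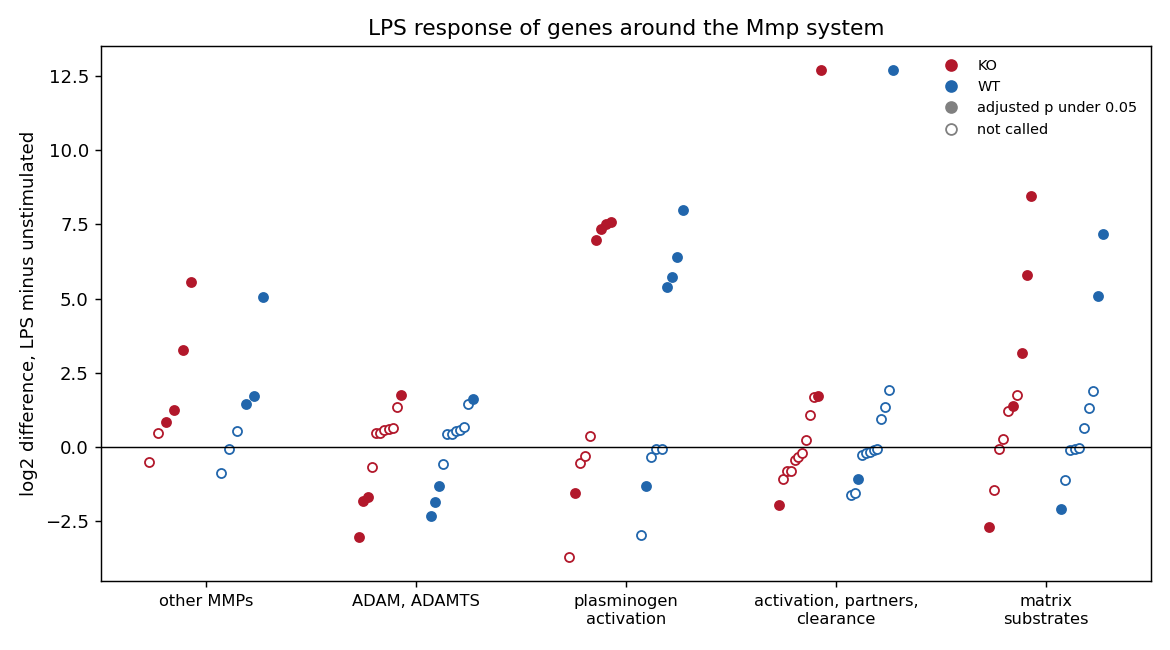
Log2 difference between LPS and unstimulated cells (y axis) for each tested gene of the 5 lists around the metalloproteinases, in KO cells (red, left) and WT cells (blue, right). Filled points passed an adjusted p under 0.05. Fitted values of genes below background in one state depend on signals near the background, and where a whole state was below background the text gives a lower bound or no fold.

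Promoter sequences were compared because Mmp13 and Timp1 rose together and because AP-1, a transcription factor dimer of the Fos and Jun families, is a textbook regulator of collagenase promoters. RefSeq promoter windows of GRCm38.p6, from 250 bases before to 50 bases after the start site, were listed for 7 of the 9 members, in 8 windows, with none for Mmp9 and Mmp19. The letters TGANTCA on either strand, an AP-1 type motif, were found in 2 of the 8 windows, that of Mmp13 and 1 of the 2 of Mmp12, and in 7.81% of 32851 mouse promoter windows of the same length. The letters GGGNNNNNCC on either strand, an NF-kB type motif, were found in 5 of the 8 windows and in 50.8% of all windows. The 100 bases before each start site are printed with the AP-1 type match in capitals, which begins 44 bases before the Mmp12 start at chr9:7347274-7347373 and 35 bases before the Mmp13 start at chr9:7272414-7272513, both on the plus strand.
Mmp12 promoter: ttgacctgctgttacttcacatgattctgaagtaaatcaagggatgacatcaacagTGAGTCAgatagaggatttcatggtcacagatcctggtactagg
Mmp13 promoter: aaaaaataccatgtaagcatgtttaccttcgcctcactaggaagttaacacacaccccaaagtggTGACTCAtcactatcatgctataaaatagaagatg
Of these genes, Mmp13 rose with LPS and Mmp12 was not called. Whether either motif had a part in the LPS differences was not tested. The other Mmp12 window, at chr9:7344147-7344446, had no AP-1 type match. The Timp1 window had no match to TGANTCA and 4 matches to GGGNNNNNCC, some of them overlapping.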

How the data were processed

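Total RNA from 8 sorted cell samples (4 groups of 2) was labelled with Cy3 and hybridised to 1-colour Agilent arrays of 45018 spots, 1639 of them controls, with 41174 probes. Scans were read with Agilent Feature Extraction 10.5.1.1, per the file headers. The deposited intensity values are background-subtracted processed signals, mean signals and local background, not scaled between arrays. The deposited flags (another unit, coded 0 or 1) give each spot's state: above background, saturated or outlying. The deposited series table holds log2 values and, checked against the scanner values, equals log2 processed signal minus a constant per array, with column medians of 4.98 to 5.30. Probe positions are mm9, per the file headers.

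Here, log2 processed signal minus each array's 75th percentile was used, outlying spots were left out (120 to 174 per array), spots of a probe were averaged, and genes were kept where a probe cleared the background flag on both arrays in 1 group or more. The brightest probe stood for a gene. Other probes of the members are given beside it, and those of genes in the other lists are not. Differences were tested with limma 3.58.1 (R 4.3.3, lmFit and eBayes) on 4 group means over 8 arrays, with 4 residual and 2.88 prior degrees of freedom, Benjamini-Hochberg adjustment over all genes and calls at adjusted p under 0.05. The procedure was tested on simulated data with independent noise and no slide or replicate structure, so that test does not cover such structure. The number of arrays limits the precision. Alternatives covered normexp background correction (offset 50), quantile normalization, other filters and probe rules, the deposited table, slide and replicate as blocks, each slide alone, no moderation and each array left out.

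All members and their probes are named. In each other list, up to 3 called genes with the largest positive and 3 with the largest negative difference are named per comparison, except for some genes not reported here. The members and lists were chosen with earlier results of these data known.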

Additional observations from a re-analysis of the deposited data

How the results depend on the processing

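No called member changed direction under any alternative run. The counts of called members in the LPS comparisons (3 higher, 2 lower in each genotype) changed as follows. With normexp on mean and background signals, 2 members were higher and 1 lower in each genotype (Mmp14 and Mmp19 lost). Within slide 2, 1 was higher and 1 lower in KO cells. Within slide 1, 2 were higher in WT cells (Mmp14 lost), and without moderation 2 were higher in each genotype (Timp1 lost). With the slide or the replicate block, 3 were lower in KO cells (Mmp12 gained). With single arrays left out, 2 to 3 were higher and 2 were lower in each genotype, and 0 members were called between genotypes or for the difference in response. Quantile normalization, the deposited table, averaged probes, every probe on its own and a fit of only the groups compared changed no member call. Requiring a probe well above background on all 8 arrays changed none either, but removed Timp3. Over all 16 LPS results, called or not, the sign changed under some alternative for 1 (Timp3 in WT cells, never called). It changed for 13 of 16 KO against WT results and 7 of 8 differences in response, none of them ever called. Over all genes, the LPS calls (3201 in KO and 3105 in WT cells) fell to 936 and 687 with normexp, 1662 and 1579 without moderation, 445 within slide 2 (KO) and 1533 within slide 1 (WT). With single arrays left out they were 1423 to 3107 in KO and 1441 to 2865 in WT cells. The 37 unstimulated genotype calls became 56 without a filter, 1 with the strict filter, 5 with the slide as a block, 0 with normexp and 0 to 26 with single arrays left out. Of 62 calls that the naming rule took from the other lists, 26 held without each array in turn. Normexp ended 32 of the 62, and turned Cd163 (0.035) and Ltf (0.98) in KO LPS against KO unstimulated cells, neither then called. No within-slide value exists for the difference in response, since no slide held all 4 groups. Same-numbered arrays deviated together with correlations of 0.013 to 0.69, but each comparison has only 2 such pairs and the labels give the number no meaning. In a fit with the replicate block, Mmp12 in KO cells was called (-1.47, adjusted p = 0.0243), and no member lost its call. The Timp1 difference between KO and WT cells was then 0.19 ± 0.29 (SE) unstimulated and -0.38 ± 0.29 with LPS, far narrower than without the block. The causes of these changes were not tested. Dim probes (Mmp9, Timp3) are limited by their signal over background.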

Other observations

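For each tested member, genes among the 3 whose scaled log2 signals followed it most closely over the 8 arrays are given. With 4 groups of 2 arrays, these correlations mostly carry the difference between LPS and unstimulated cells, and the points share their slides, so they are given as a description. Mmp13 was followed by Fbxo11 (Pearson r = 0.998), AK051479 (0.992) and Eif2ak2 (0.992), and Mmp14 by the chemokine gene Ccl5 (0.996), Oas1f (0.995) and Insl6 (0.993). Mmp19 was followed by 4833419E13Rik (0.999), Klf4 and Lat2, Timp1 by Serpina3f (0.996), NAP109359-1 and 9530076L18, and Timp2 by Efcab4a (0.999), Klc4 and Amz1. The members without a call had Cdk9 (0.990), Myoz1 and Prickle3 beside Mmp8, Rnft1 (0.980), Mycbp2 and Elk4 beside Mmp12, and Tmem62 (0.963) and Vamp3 beside Timp3. Among the members themselves, Timp2 and Mmp19 had r = 0.990 with each other, and Timp2 had r = -0.97 with both Timp1 and Mmp13.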
